A study of Mus musculus with 4 samples.

Results

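Arg1, Arg2, Nos2, Slc7a2, Slc7a5, Ass1, Il4i1 and Ido1 are 8 of the 32285 genes counted in single spleen cells of a mouse of genotype pBIC10 and a mouse of genotype pBIC. The genes were chosen by name as the enzymes and carriers through which immune cells use arginine and tryptophan, and all 8 symbols were found once in the count tables. The series title concerns interleukin-10 made by the tumoral B cells of a diffuse large B-cell lymphoma model. The labels give both mice as female, name the tissue as spleen and do not spell out the alleles behind either genotype name, nor the ages. Per the labels' protocols, spleen cells were sorted by GFP and remixed as 20% live lymphoma cells and 80% live other cells, so shares of classes among the cells follow the sort as well as the tissue. Each genotype has 1 gene expression library and is described here as 1 mouse, so nothing below is tested between genotypes, and mouse, genotype and library cannot be told apart.

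Arginine enters macrophages mainly through cationic amino acid carriers, of which Slc7a2 encodes CAT2, and is then split by arginase into ornithine and urea or oxidised by inducible nitric oxide synthase to nitric oxide and citrulline. Ass1, argininosuccinate synthase, starts the route that rebuilds arginine from citrulline. Tryptophan and other large neutral amino acids enter through LAT1, encoded by Slc7a5, and are consumed outside the liver by Ido1, which opens the kynurenine pathway, and by Il4i1, a secreted amino acid oxidase. Local loss of arginine or tryptophan is known to restrain T cells, which is why these genes are read as immune regulators in tumours.

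Cells were assigned by 6 gates on UMI counts, a UMI being 1 counted RNA molecule. The Tgfbi macrophage gate needed Tgfbi of at least 1 and Lyz2 of at least 10, and held 2644 pBIC10 and 656 pBIC cells. The C1q macrophage gate needed C1qa, C1qb and C1qc to sum to at least 10, and held 876 and 186 cells. The gate on Flt3 and Zbtb46, summing to at least 1, held 1160 pBIC10 and 878 pBIC cells. The neutrophil gate, Csf3r of at least 1 with S100a8 of at least 10, held 1079 and 261 cells. The B gate, Cd79a and Cd79b summing to at least 3, held 2728 and 3911 cells, and the T gate, Cd3e of at least 1, held 4710 and 10793 cells. A barcode could meet several gates, which 17.1% of pBIC10 and 11.3% of pBIC cells did. The values below are for all cells of a gate unless cells of 1 gate only are named. Cells of 1 gate only leave out macrophages that met both macrophage gates, 728 in pBIC10 and 114 in pBIC.

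The 2 macrophage gates overlapped widely, and the Flt3 and Zbtb46 gate held many B and T cells. Of the C1q-gated cells, 83.1% in pBIC10 and 61.3% in pBIC also met the Tgfbi gate, so these classes share cells and their values are not independent. Of the Tgfbi-gated cells, 9.68% in pBIC10 and 25.2% in pBIC met the T gate. The Flt3 and Zbtb46 gate was proposed as dendritic, but only 36 pBIC10 and 32 pBIC cells of it had a UMI of Xcr1 or Clec9a, markers of cross-presenting dendritic cells, 37.8% and 17.7% met the B gate, and 35.5% and 46.8% the T gate. In cells of that gate alone, in UMIs per 1000000 UMIs of a class (CPM), the 4 erythroid markers Slc4a1, Klf1, Rhag and Ermap summed to 548 CPM in pBIC10 and 1280.3 CPM in pBIC, against 324 and 194 CPM for 6 dendritic markers. It is therefore called Flt3/Zbtb46-gated here and not dendritic. The 5 neutrophil markers S100a9, Retnlg, Cxcr2, Ly6g and Mmp8 summed to 51413 CPM in pBIC10 and 72719 CPM in pBIC neutrophils. For the T gate, the TCR libraries held a TRB contig for 72.3% of its pBIC10 and 72.2% of its pBIC cells.

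Levels are given in CPM with exact Poisson 95% intervals. These intervals, and all others here, cover counting error only and not the difference between mice. Ratios were taken where a gene had at least 20 UMIs over both libraries in a class, which held for 43 of the 48 gene and class pairs. The libraries held 147884282 UMIs in pBIC10 and 166941618 in pBIC, with medians of 5458 and 6235 UMIs per barcode, and 712 barcode sequences occurred in both. As 5' counts do not correct for capture of each transcript, levels of different genes are not compared as amounts.

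**Figure D1:**
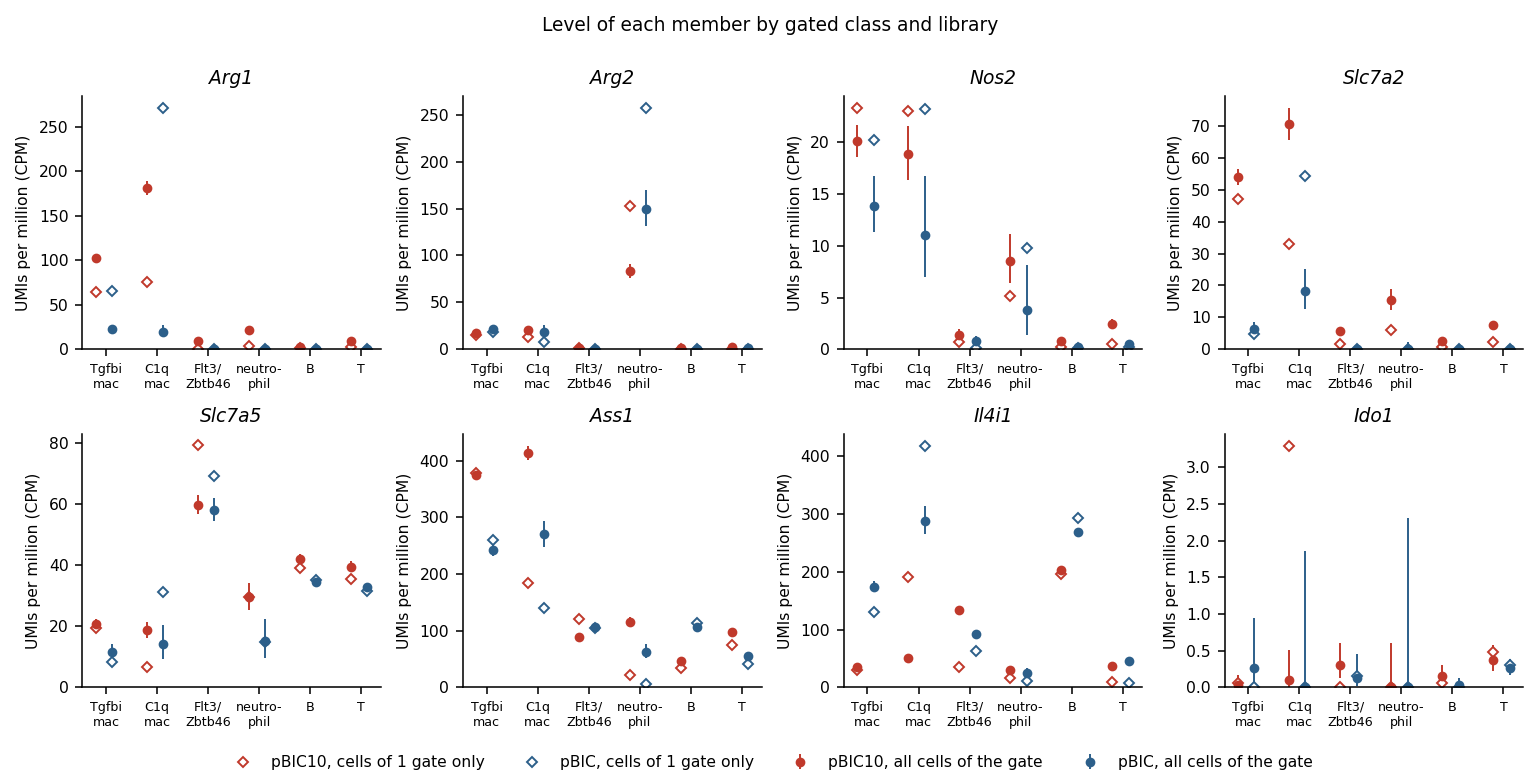
Level (CPM, linear axes that start at 0 and differ between genes) of each gene in the 6 gated classes, pBIC10 in red left of pBIC in blue. Circles with exact Poisson 95% bars are all cells of a gate and open diamonds are cells that met 1 gate only. Arg1, Nos2, Slc7a2 and Ass1 were high in macrophage gates and Arg2 in neutrophils. Over all cells of a gate, Il4i1 was highest in B cells in pBIC10, followed by Flt3/Zbtb46-gated cells. In pBIC it was high in B cells and both macrophage gates.

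Over all cells of a gate, 5 of the 8 genes had the same highest class in both mice. Arg2 was highest in neutrophils, Nos2 in Tgfbi macrophages, Slc7a2 and Ass1 in C1q macrophages, and Slc7a5 in Flt3/Zbtb46-gated cells. Nos2 did not differ between the Tgfbi and C1q gates beyond counting error in either mouse. In cells of 1 gate only the order of the macrophage gates changed for Ass1, Slc7a2, Nos2 and Arg2. Arg2 in pBIC10 was then at 14.9 CPM in the Tgfbi gate and 13.2 CPM in the C1q gate, with an interval of the ratio that included 1. Ass1 was then highest in the Tgfbi gate in both mice, at 379 CPM against 184 CPM in the C1q gate in pBIC10, and at 261 against 139 CPM in pBIC. Slc7a2 was then at 47.0 CPM in the Tgfbi gate and 32.9 CPM in the C1q gate in pBIC10, and Nos2 at 20.2 and 23.2 CPM in pBIC, from 3 UMIs in the C1q gate, with intervals that overlapped. The other 3 genes had different highest classes, which for Arg1 rested on few cells in pBIC and for Ido1 on few UMIs. For Il4i1 the B gate was highest in pBIC10, while in pBIC the C1q and B gates did not differ beyond counting error. In cells of 1 gate only the B and C1q gates of pBIC10, at 196 and 191 CPM, did not differ beyond counting error. In pBIC the C1q gate was then above the B gate, at 418 against 294 CPM.

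Between the mice, the arginine carrier Slc7a2 and arginase Arg1 were higher in pBIC10 macrophages, whereas Il4i1 was lower. In cells of 1 gate only the order of Arg1 in both macrophage gates, and of Slc7a2 in the C1q gate, did not hold. Those cells leave out the macrophages of both gates, where pBIC10 had 1951 Arg1 UMIs and pBIC had 1. In the Tgfbi gate, 2 of the 7 genes with enough UMIs were at least 2-fold higher in pBIC10, against 5.25% of all 12544 genes tested in that gate, and 1 was at least 2-fold lower, against 11.7% of genes. In the C1q gate the counts were also 2 and 1 of 7, against 4.67% and 13.1% of all genes. Their median log2 ratio was 0.63 in the Tgfbi gate and 0.62 in the C1q gate, where the median over all genes was -0.24 and -0.25. With 8 genes chosen by name, these counts describe the genes and are no test.

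**Figure D2:**
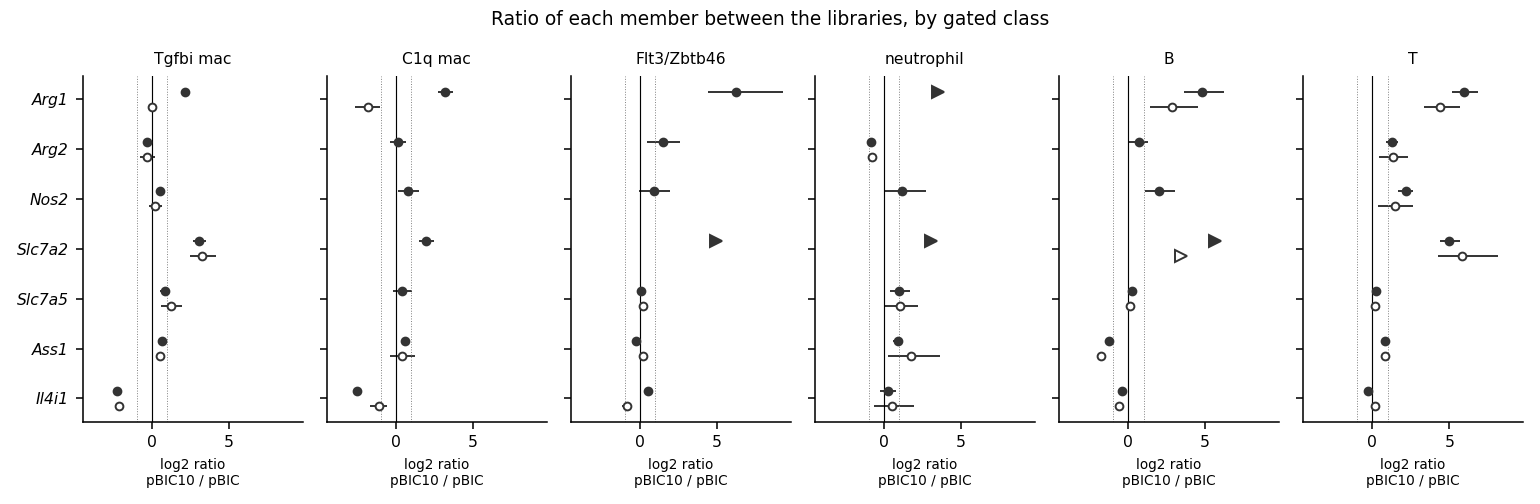
log2 ratio of pBIC10 over pBIC for 7 genes in each gated class. Filled symbols are all cells of a gate and open symbols cells of 1 gate only, bars are exact conditional 95% intervals, triangles are bounds set with 3 counts where pBIC held 0, and dotted lines mark 2-fold. Il4i1 lies left of 0 and Slc7a2 right of it in the Tgfbi gate under both ways of gating, whereas Arg1 does not keep its place there.

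Slc7a2, the inducible arginine carrier CAT2, had the largest ratio of the 7 genes in the Tgfbi gate. In the Tgfbi gate it had 1783 UMIs, 54.0 CPM (51.5 to 56.5), in pBIC10 and 49 UMIs, 6.40 CPM (4.73 to 8.46), in pBIC. The ratio was 8.44-fold, with an interval of 6.35 to 11.4. A UMI of Slc7a2 was found in 532 of 2644 pBIC10 cells, 20.1%, and in 13 of 656 pBIC cells, 1.98%. When 2000 UMIs were drawn from every cell, leaving out 117 pBIC10 and 31 pBIC cells with fewer, the shares were 6.93% in pBIC10 and 0.32% in pBIC. Among cells of the Tgfbi gate alone the levels were 47.0 CPM in pBIC10 and 4.87 CPM in pBIC, a ratio of 9.65-fold. Without the 5 cells with most Slc7a2 in each library they were 48.2 CPM in pBIC10 and 1.86 CPM in pBIC, 25.9-fold. This cut took 0.189% of the pBIC10 and 0.762% of the pBIC cells, and 5 of the 13 pBIC cells with Slc7a2, so it weighed more on pBIC.

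The C1q gate gave the same order for Slc7a2 from fewer cells. It had 767 UMIs, 70.4 CPM, in pBIC10 and 36 UMIs, 18.1 CPM, in pBIC, a ratio of 3.89-fold (2.78 to 5.59), and 97.2% of the pBIC UMIs lay in 5 cells. The order was reversed among cells of the C1q gate alone, where 10 UMIs in 122 pBIC10 cells stood against 7 UMIs in 43 pBIC cells, all 7 in 1 cell. Macrophage gates together held 86.7% of all Slc7a2 UMIs of the pBIC10 library and 91.8% of the 61 UMIs of the pBIC library.

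Arg1, the cytosolic arginase, was carried by a small set of pBIC10 macrophages and by hardly any pBIC macrophage. The Tgfbi gate held 3394 UMIs, 103 CPM (99.3 to 106), in pBIC10 and 177 UMIs, 23.1 CPM (19.8 to 26.8), in pBIC, a ratio of 4.45-fold (3.82 to 5.20). The pBIC sum was not spread over the class: 161 of its 177 UMIs, 91.0%, were in 1 cell, and all were in 5 cells. In pBIC10 the highest cell held 205 UMIs, 6.04% of the sum. A UMI was found in 274 pBIC10 cells, 10.4% (9.23 to 11.6), and in 5 pBIC cells, 0.762% (0.248 to 1.77). At least 5 UMIs were found in 112 pBIC10 cells, 4.24% of the class and 92.7% of its Arg1 UMIs, and in 3 pBIC cells, 0.457%.

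How Arg1 compared between the mice therefore depended on single pBIC cells. Without the 5 cells with most Arg1 in each library, the Tgfbi gate held 2581 UMIs, 78.4 CPM, in pBIC10 and 0 in pBIC. That 0 was set by the cut, because only 5 pBIC cells of the gate held Arg1, so no ratio is read from it. Among cells of the Tgfbi gate alone 176 of the 177 pBIC UMIs remained over 260 of the 656 pBIC cells, and the levels were 64.9 CPM in pBIC10 and 66.0 CPM in pBIC. The share of such cells with an Arg1 UMI was 7.10% (101 of 1423) in pBIC10 and 1.54% (4 of 260) in pBIC. In the C1q gate 133 of 876 pBIC10 cells, 15.2%, and 3 of 186 pBIC cells, 1.61%, had a UMI, for levels of 181 and 19.6 CPM, and 35 of the 39 pBIC UMIs were in 1 cell. With cells of the C1q gate alone the order was reversed, at 75.7 CPM from 23 UMIs in 122 pBIC10 cells and 271 CPM from 35 UMIs in that 1 pBIC cell.

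**Figure D3:**
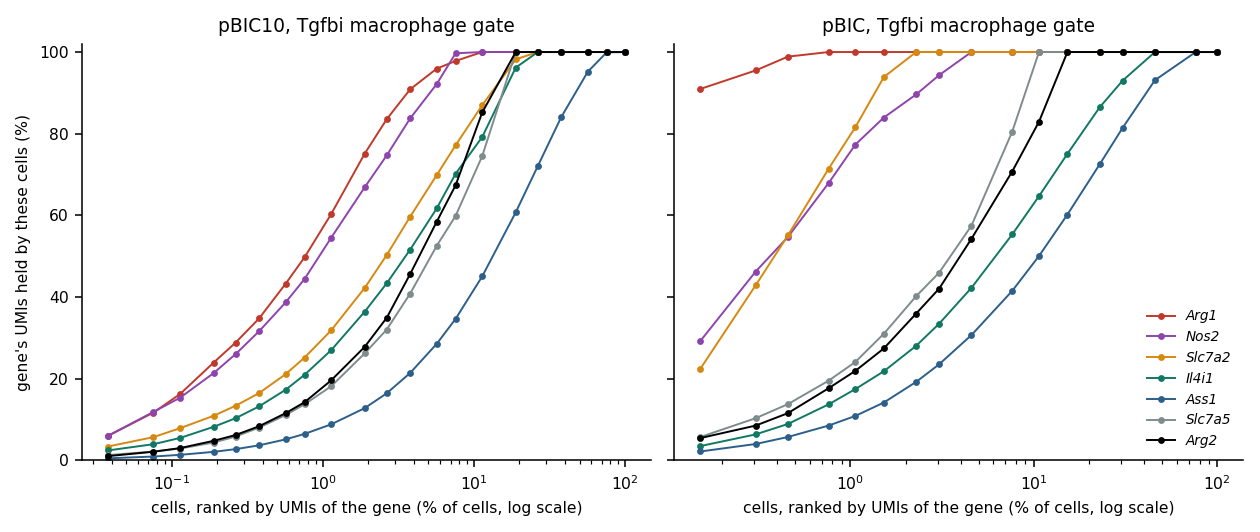
Share of each gene's UMIs (%, vertical) held by the cells of the Tgfbi gate with most of that gene (horizontal, % of cells, log scale), pBIC10 on the left and pBIC on the right. In pBIC the first Arg1 point, 1 cell, already stands at 91.0%, whereas the first Arg1 point of pBIC10 stands at 6.04%; Ass1 is the most evenly spread gene in both.

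Nos2, inducible nitric oxide synthase, was a macrophage gene in both mice and differed less. It had 664 UMIs, 20.1 CPM (18.6 to 21.7), in pBIC10 Tgfbi macrophages and 106 UMIs, 13.8 CPM (11.3 to 16.7), in pBIC, a ratio of 1.45-fold (1.18 to 1.80). Nos2 was seen in 202 pBIC10 cells, 7.64%, and 26 pBIC cells, 3.96%. In pBIC 67.9% of its UMIs were in 5 cells, against 21.4% in pBIC10. Without those 5 cells of each library the levels were 15.9 CPM in pBIC10 and 4.49 CPM in pBIC, 3.53-fold. This cut took 5 of the 26 pBIC cells with Nos2 but 5 of the 202 in pBIC10, so it weighed more on pBIC. Among cells of the Tgfbi gate alone they were 23.3 and 20.2 CPM, a ratio whose interval, 0.864 to 1.56, included 1. In the C1q gate the levels were 18.8 CPM in pBIC10 and 11.1 CPM in pBIC.

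Ass1, which starts the rebuilding of arginine from citrulline, was the most widely detected of the 8 genes in macrophages and moderately higher in pBIC10. The Tgfbi gate had 375 CPM (369 to 382) in pBIC10 and 243 CPM (232 to 254) in pBIC, a ratio of 1.55-fold (1.47 to 1.62). The C1q gate had 414 CPM in pBIC10 and 270 CPM in pBIC, 1.53-fold. A UMI was found in 76.0% of pBIC10 and 65.2% of pBIC Tgfbi macrophages, or 40.5% and 26.9% at 2000 UMIs per cell. Cells of the Tgfbi gate alone gave 379 CPM in pBIC10 and 261 CPM in pBIC, and cells of the C1q gate alone gave 184 and 139 CPM, with an interval of the ratio that included 1.

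Arg2, the mitochondrial arginase, and Slc7a5 differed less than 2-fold in CPM between the macrophages over all cells of a gate. Arg2 had 17.0 CPM in pBIC10 and 21.4 CPM in pBIC Tgfbi macrophages, a log2 ratio of -0.33 (-0.59 to -0.07), and 20.4 and 18.6 CPM in C1q macrophages. Slc7a5 had 20.7 CPM in pBIC10 and 11.4 CPM in pBIC Tgfbi macrophages, 1.82-fold (1.45 to 2.30), and 18.7 and 14.1 CPM in C1q macrophages, with an interval of the ratio that included 1. In cells of the Tgfbi gate alone Slc7a5 had 19.5 CPM in pBIC10 and 8.25 CPM in pBIC, from 22 UMIs in pBIC. Scaling by the trimmed mean of M values (TMM) raises log2 ratios over all cells of the Tgfbi gate by 0.29. That puts Slc7a5 past 2-fold there and leaves Arg2 with an interval that includes 0.

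Il4i1, the amino acid oxidase, was the 1 gene of the 7 that was at least 2-fold lower in pBIC10 macrophages. It had 1178 UMIs, 35.7 CPM (33.7 to 37.8), in pBIC10 Tgfbi macrophages and 1332 UMIs, 174 CPM (165 to 184), in pBIC, 4.88-fold lower in pBIC10. In C1q macrophages it had 51.0 CPM in pBIC10 and 289 CPM in pBIC, 5.67-fold lower. The transcript was spread over cells in both mice: 20.6% of pBIC10 and 44.7% of pBIC Tgfbi macrophages had a UMI, or 5.62% and 18.6% at 2000 UMIs per cell. Leaving out the 5 highest cells of each library gave 32.9 and 152 CPM. Cells of the Tgfbi gate alone gave 29.2 and 131 CPM, and those of the C1q gate alone 191 and 418 CPM.

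Markers of other cells in the Tgfbi gate moved with the mouse. All 4 B markers (Ms4a1, Pax5, Cd22, Blk) were above 0 in both and summed to 27.8 CPM in pBIC10 and 51.8 CPM in pBIC. All 5 T markers (Cd3d, Cd3g, Trac, Cd8a, Cd4) summed to 82.6 CPM in pBIC10 and 267 CPM in pBIC. In cells of the Tgfbi gate alone the T markers were close, at 27.0 and 36.4 CPM, and the B markers stood at 18.1 and 33.0 CPM, while Il4i1 was 4.48-fold lower in pBIC10. All 5 monocyte markers (Ly6c2, Ccr2, Vcan, F13a1, Fn1) summed to 1702 CPM in pBIC10 and 1203 CPM in pBIC, and 4 macrophage markers (Csf1r, Adgre1, Cd68, Mertk) to 856 and 1115 CPM. Single markers did not all follow these sums: Ccr2 stood at 232 CPM in pBIC10 and 287 CPM in pBIC, F13a1 at 148 and 204 CPM, and Cd68 at 375 and 345 CPM. The 5 neutrophil markers summed to 4637 CPM in pBIC10 and 5327 CPM in pBIC over all cells of the Tgfbi gate, and to 5078 and 2097 CPM in cells of that gate alone. In the C1q gate they summed to 812 CPM in pBIC10 and 34.7 CPM in pBIC. In cells of the C1q gate alone they summed to 6919 CPM in pBIC10 and 155 CPM in pBIC. Those cells had medians of 1894.5 UMIs in pBIC10 and 2022 UMIs in pBIC. The part of this makeup in the values of the 8 genes was not tested.

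Within each mouse, the macrophages that met both gates differed from those that met the Tgfbi gate without the C1q gate. In pBIC10, Arg1 stood at 187 CPM in the 728 cells of both gates and 63.8 CPM in the 1916 cells of the Tgfbi gate without C1q, 2.94-fold. In pBIC the same groups, of 114 and 542 cells, had 1 and 176 Arg1 UMIs, of which 161 were in the single highest cell. Slc7a2 was higher in the cells of both gates in each mouse, at 72.2 against 45.6 CPM in pBIC10 and 17.9 against 3.31 CPM in pBIC, where the value of both gates is 29 UMIs in 5 cells. Il4i1 was likewise higher in the cells of both gates, at 45.2 against 31.2 CPM in pBIC10 and 303 against 139 CPM in pBIC. Nos2 did not differ between these groups beyond counting error in either mouse.

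**Figure D4:**
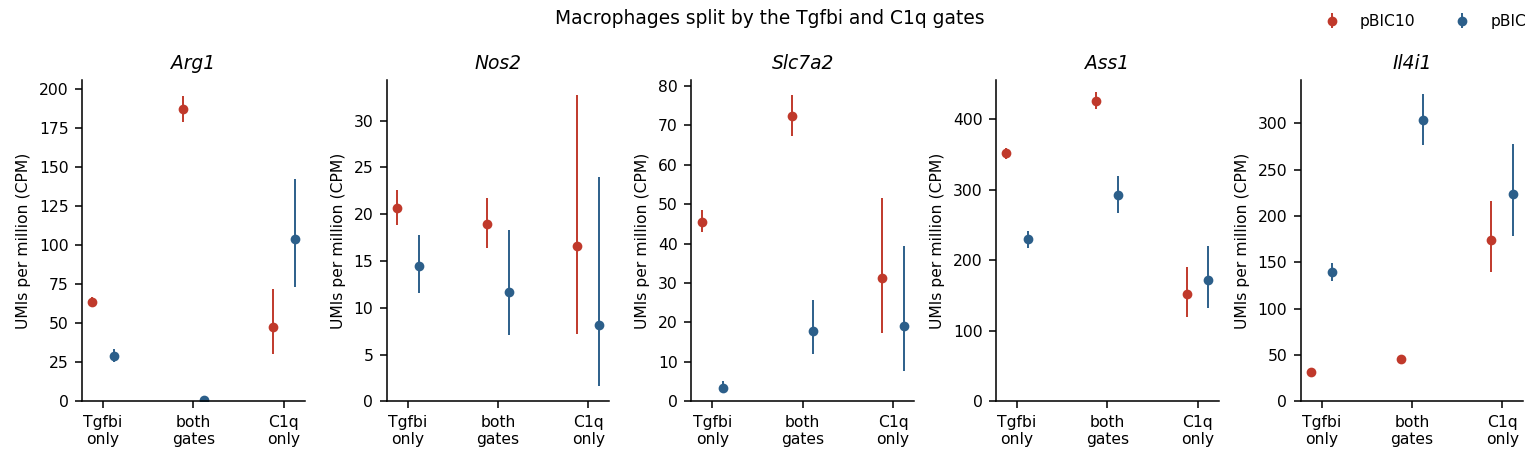
Level (CPM, linear axes from 0) of 5 genes in macrophages of the Tgfbi gate without C1q, of both gates, and of the C1q gate without Tgfbi, pBIC10 in red left of pBIC in blue, with exact Poisson 95% bars. In cells of both gates Arg1 stands at 187 CPM in pBIC10 and 0.617 CPM in pBIC, and Il4i1 at 45.2 CPM in pBIC10 and 303 CPM in pBIC.

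Genes of the arginine route were detected in overlapping sets of pBIC10 macrophages, and Arg1 and Nos2 were each found in few of them. To set cells at 1 depth, 5000 UMIs were drawn from each of 2238 Tgfbi-gated pBIC10 cells, and 406 shallower cells were left out. Slc7a2 was found in 35.5% (28.3 to 43.1) of the 172 cells with Arg1 and in 11.1% (9.81 to 12.6) of the others. It was found in 43.1% (33.7 to 53.0) of the 109 cells with Nos2 and in 11.5% of the others. Both Arg1 and Nos2 were found in 14 cells. Nos2 was in 8.14% (4.52 to 13.3) of the Arg1 cells and 4.60% (3.74 to 5.59) of the others, with intervals that overlapped.

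Ass1 was found more often in cells with Nos2 or Slc7a2 than in cells without, and about equally often with and without Arg1. It was found in 82.6% of the Nos2 cells and 66.5% of the others, and in 82.5% of the Slc7a2 cells and 65.0% of the others. Among Arg1 cells the share was 68.0%, and among the others 67.2%. Il4i1 was found in 8.72% of the Arg1 cells and 11.7% of the others, with intervals that overlapped. These shares describe cells of 1 mouse. In pBIC too few Tgfbi-gated cells held Arg1, Nos2 or Slc7a2 for the same comparison.

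**Figure D5:**
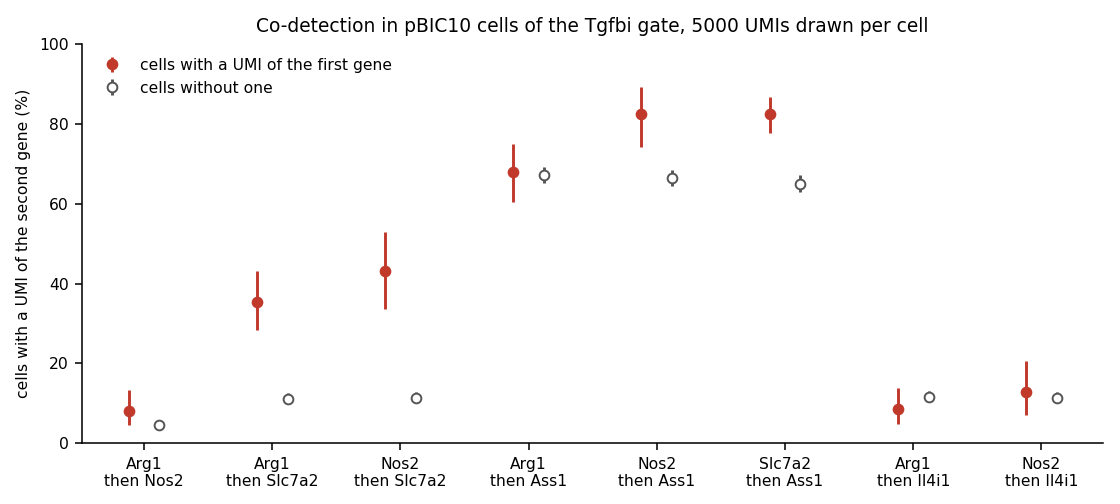
Share of pBIC10 Tgfbi-gated cells (%) with a UMI of a second gene, among cells with a UMI of the first gene (filled) and cells without one (open), after 5000 UMIs were drawn per cell, with Clopper-Pearson 95% bars. Slc7a2 stands at 35.5% with Arg1 against 11.1% without, and at 43.1% with Nos2 against 11.5% without, while Ass1 stands at 68.0% with Arg1 and 67.2% without.

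Arg2 marked neutrophils in both mice, at a lower level in pBIC10. It had 508 UMIs, 83.2 CPM (76.1 to 90.7), in pBIC10 neutrophils and 240 UMIs, 149.8 CPM (131 to 170.1), in pBIC, 1.80-fold lower. It was found in 32.8% of 1079 pBIC10 and 52.1% of 261 pBIC neutrophils, or 22.7% and 35.7% at 2000 UMIs per cell. Neutrophils of that gate alone had 153 CPM in pBIC10 and 257 CPM in pBIC. The next class, a macrophage gate, stood at 20.4 CPM in pBIC10 and 21.4 CPM in pBIC.

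Among the other genes in the neutrophil gate, 3 of the 7 with enough UMIs were at least 2-fold higher in pBIC10, against 8.16% of all genes, and 0 were at least 2-fold lower, against 5.95%. The 3 were Arg1, Slc7a2 and Nos2. Arg1 had 129 UMIs in pBIC10, 54 of them in 1 cell, and 0 in pBIC, at least 11.3-fold higher with a floor of 3 counts for pBIC. Slc7a2 had 94 UMIs in pBIC10 and 0 in pBIC, at least 8.22-fold higher. Nos2 had 8.51 and 3.75 CPM, with a ratio of 2.27-fold whose interval, 0.977 to 6.48, included 1. Of the pBIC10 neutrophils 19.4%, and of the pBIC neutrophils 24.1%, also met the Tgfbi gate. In neutrophils of 1 gate only Arg1 had 10 UMIs in pBIC10 and 0 in pBIC, and Nos2 was at 5.17 and 9.77 CPM, the reverse order. Ass1 in the neutrophil gate was 116 CPM in pBIC10 and 62.4 CPM in pBIC, but 21.5 and 6.51 CPM in neutrophils of 1 gate only.

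Il4i1 was mainly a B-cell transcript by number of molecules. B cells of 1 gate only held 49.0% of all Il4i1 UMIs of the pBIC10 library and 61.7% of those of the pBIC library. The B gate had 202 CPM (199 to 206) in pBIC10 and 269 CPM (264 to 273) in pBIC, 1.33-fold lower, and 60.1% and 59.0% of its cells had a UMI. Under scaling by the trimmed mean of M values (TMM) the log2 ratio was -0.06 in place of -0.41, so most of this difference depended on the scaling.

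B cells with at least 10 UMIs of the mouse's most frequent light-chain V segment carried most of it. This cut stands in for the expanded B-cell clone, which the tables do not mark. Such cells were 2208 of 2728 B-gated pBIC10 cells and 2617 of 3911 pBIC cells, and had 216 CPM of Il4i1 in pBIC10 and 293 CPM in pBIC. The other B-gated cells had 57.3 CPM in pBIC10 and 140 CPM in pBIC. The ratio of these cells to other B cells was 3.77-fold in pBIC10 and 2.10-fold in pBIC, or 2.55-fold and 1.41-fold in B cells of 1 gate only.

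Ass1 was lower in pBIC10 B cells, the reverse of its order in macrophages and T cells. The B gate had 2445 UMIs, 46.0 CPM (44.2 to 47.9), in pBIC10 and 6138 UMIs, 107 CPM (105 to 110.0), in pBIC, 2.33-fold lower, and 3.41-fold lower in B cells of 1 gate only. Under TMM scaling the log2 ratio over all cells of the gate was -0.88, short of 2-fold, in place of -1.22. It was found in 847 of 2728 pBIC10 and 1958 of 3911 pBIC B cells, or 7.60% and 17.2% at 2000 UMIs per cell. In cells with the leading light-chain segment Ass1 stood at 35.1 CPM in pBIC10 and 111 CPM in pBIC, while in the other B cells it stood at 163 CPM in pBIC10 and 89.4 CPM in pBIC. In B cells of 1 gate only the values were 30.6 and 115 CPM with the segment and 78.4 and 92.5 CPM without. At 5000 UMIs per cell, Il4i1 was found in 25.2% of pBIC10 B cells with Ass1 and 46.6% of those without, and in 40.7% and 51.1% in pBIC.

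In the B gate, 3 of 7 genes were at least 2-fold higher in pBIC10, against 11.1% of all genes, and Ass1 alone was at least 2-fold lower, against 25.2% of all genes. The 3 were Arg1, Slc7a2 and Nos2, at 2.88, 2.60 and 0.847 CPM in pBIC10 and 0.105, 0 and 0.210 CPM in pBIC. In B cells of 1 gate only Nos2 had 6 UMIs in each mouse, 0.187 CPM in pBIC10 and 0.159 CPM in pBIC, short of 2-fold. The B markers themselves summed to 472 CPM in pBIC10 and 1025 CPM in pBIC B cells, and all 5 neutrophil markers to 623 and 131 CPM.

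T cells differed in Ass1 and hardly in Slc7a5. Ass1 had 97.0 CPM (94.3 to 99.8) in pBIC10 T cells and 55.2 CPM (53.7 to 56.7) in pBIC T cells, 1.76-fold, and 73.8 and 41.2 CPM in T cells of 1 gate only. Within those, T cells with a Cd4 UMI had more Ass1 than the rest in each mouse, at 142 against 66.2 CPM in pBIC10 and 76.7 against 35.0 CPM in pBIC. Red-cell precursors outside the gates, described below, had the same order of Ass1 between the mice, and a shift shared across classes was not tested. Slc7a5, the LAT1 carrier that feeds growing T cells, had 39.5 CPM in pBIC10 and 32.8 CPM in pBIC, 1.20-fold. T cells with a UMI of Mki67 or Top2a, genes of dividing cells, had more Slc7a5 than the rest, at 49.0 against 20.4 CPM in pBIC10 and 39.0 against 15.3 CPM in pBIC. At 2000 UMIs per cell, and in cells of 1 gate only, a Slc7a5 UMI was found in 5.26% of dividing against 3.43% of other pBIC10 T cells, and in 4.12% against 2.42% in pBIC.

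In the T gate, 4 of the 8 genes were at least 2-fold higher in pBIC10, against 11% of all genes, and 0 were at least 2-fold lower, against 11.4%. The 4 were Arg1, Slc7a2, Nos2 and Arg2, at 8.93, 7.55, 2.43 and 2.53 CPM in pBIC10 and 0.144, 0.237, 0.535 and 1.04 CPM in pBIC. In T cells of 1 gate only they stood at 2.33, 2.36, 0.541 and 0.701 CPM in pBIC10 and at 0.109, 0.0409, 0.191 and 0.272 CPM in pBIC. Il4i1 had 37.4 CPM in pBIC10 and 45.3 CPM in pBIC, but 8.50 and 7.45 CPM in T cells of 1 gate only.

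Low shares of cells with Arg1 or Slc7a2 among lymphocytes were no higher than among red-cell precursors in pBIC10. Cells with at least 3 UMIs of Slc4a1 and Klf1 and none of the 6 gates served as the background class, 167 in pBIC10 with a median of 10336 UMIs and 243 in pBIC with a median of 12907. Whether these precursors express the genes themselves was not tested. Arg1 had a UMI in 1.80% of these pBIC10 cells, against 1.51% of pBIC10 T cells of 1 gate only, whose median was 5974.5 UMIs, and 1.48% of B cells of 1 gate only, whose median was 12671. Slc7a2 had a UMI in 3.59% of the pBIC10 red-cell precursors, against 1.81% of those T cells and 1.43% of those B cells. The precursor shares rest on 3 cells with Arg1 and 6 with Slc7a2. By level, those pBIC10 T cells had 2.33 CPM of Arg1 (1.82 to 2.92) and the precursors 1.14 CPM (0.235 to 3.32), and for Slc7a2 2.36 CPM (1.85 to 2.96) and 2.27 CPM (0.835 to 4.95), with intervals that overlapped. In pBIC, Arg1 and Slc7a2 had 0 UMIs in the precursors, which allows up to 0.799 CPM of each. Arg1 and Slc7a2 in B cells and T cells of 1 gate only are therefore not set apart from background. No difference in expression is read from their ratios there. Nos2 and Arg2 had 0 UMIs in the precursors of both mice, which allows up to 1.14 CPM in pBIC10 and 0.799 CPM in pBIC, and both genes lay under these limits in T cells of 1 gate only. Neutrophils of 1 gate only, with a median of 2743 UMIs, had Arg1 at 3.98 CPM (1.91 to 7.32) and a UMI in 1.35% of cells in pBIC10, and Slc7a2 at 5.97 CPM (3.34 to 9.85) and a UMI in 1.62%. These levels were above those of the deeper precursors with intervals that overlapped, and neither background nor expression is read from them. Il4i1 had a UMI in 6.35% of pBIC10 and 5.28% of pBIC T cells of 1 gate only, and in 4.79% and 7.41% of precursors, with intervals that overlapped. By level, Il4i1 in those T cells was above the precursors in pBIC10, at 8.50 CPM (7.52 to 9.59) against 3.03 CPM (1.31 to 5.98), and overlapped them in pBIC, at 7.45 CPM (6.84 to 8.10) against 5.33 CPM (3.25 to 8.23). Slc7a5 and Ass1 cannot be read this way, because the precursors themselves held 87.9 and 56.1 CPM in pBIC10 and 135 and 33.0 CPM in pBIC. For Ass1 this is the same order between the mice as in T cells.

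Among the 6 gates, Flt3/Zbtb46-gated cells had the most Slc7a5, and they held a small population rich in Il4i1. Slc7a5 was 59.7 CPM in pBIC10 and 58.0 CPM in pBIC, a ratio of 1.03-fold (0.948 to 1.12), below the 87.9 and 135 CPM of the red-cell precursors. Cells of the gate alone carried 548 CPM of erythroid markers in pBIC10 and 1280.3 CPM in pBIC, and the part of red-cell precursors in its Slc7a5 was not tested. Il4i1 was 133 CPM in pBIC10 and 92.1 CPM in pBIC over all cells of the gate, but 35.0 and 63.1 CPM in cells of that gate alone, a turn in direction. Which of the cells that also met other gates carry it was not tested. Among cells of the gate alone, 25 pBIC10 and 21 pBIC cells had at least 2 UMIs of Ccr7 and Fscn1 together, markers of migrating mature dendritic cells. They had Il4i1 at 349.9 CPM (280.3 to 432) in pBIC10 and 1564 CPM (1379.9 to 1766) in pBIC. The rest of the cells of the gate alone had 14.1 CPM in pBIC10 and 23.2 CPM in pBIC. The B gate also held Ccr7 and Fscn1, at 75.7 and 58.5 CPM in pBIC10 and 52.5 and 4.54 CPM in pBIC. Whether the 25 and 21 cells are dendritic was not tested.

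Ass1 was also uneven in that gate. In cells of the gate alone it stood at 121 CPM in pBIC10 and 511 CPM in pBIC among the Ccr7 and Fscn1 cells. In the rest it stood at 119.9 and 93.9 CPM. Cells with Xcr1 or Clec9a, 31 in pBIC10 and 21 in pBIC, had 211 and 207 CPM of Ass1 and only 1 and 2 UMIs of Il4i1. Over the whole gate, 3 of 7 genes were at least 2-fold higher in pBIC10, against 8.09% of all genes, and 0 were at least 2-fold lower, against 19.1%. They were Arg1, Slc7a2 and Arg2, at 9.60, 5.65 and 1.75 CPM in pBIC10 and 0.126, 0 and 0.630 CPM in pBIC, and cells of that gate alone held 2, 7 and 6 UMIs of them in pBIC10 and 1, 0 and 0 in pBIC.

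Ido1, the enzyme most often named for tryptophan loss in tumours, was near absent from both spleens at this depth. The libraries held 29 UMIs in pBIC10 and 27 in pBIC. None of the 6 gates exceeded 0.367 CPM over all its cells, and the T gate, with 18 UMIs in pBIC10 and 25 in pBIC, was the only one with at least 20 UMIs over both libraries, its ratio having an interval of 0.734 to 2.73. Neutrophils had 0 UMIs in both, which allows up to 0.491 CPM in pBIC10 and 1.87 CPM in pBIC.

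Beyond the 8 genes, 80 of 81 listed genes of arginine, polyamine, nitric oxide, amino acid transport and kynurenine metabolism and their regulators were found in the tables. In Tgfbi macrophages 2 of 68 with enough UMIs were at least 2-fold higher in pBIC10 and 6 at least 2-fold lower, against 5.25% and 11.7% of all genes, with a median log2 ratio of -0.18 beside -0.24 for all genes. In C1q macrophages the counts were 4 and 4 of 61, against 4.67% and 13.1% of all genes. The cystine carrier Slc7a11 was the one named as higher in both, at 166 CPM in pBIC10 and 63.1 CPM in pBIC Tgfbi macrophages and at 208 and 60.9 CPM in C1q macrophages. Irf1, a transcription factor of the interferon response, was lower, at 162 CPM in pBIC10 and 350.2 CPM in pBIC Tgfbi macrophages and at 140.4 and 301 CPM in C1q macrophages. Paox, a polyamine oxidase, stood at 23.7 CPM in pBIC10 and 56.3 CPM in pBIC C1q macrophages. The kynurenine hydroxylase Kmo stood at 3.54 CPM in pBIC10 and 10.7 CPM in pBIC Tgfbi macrophages, and the arginine carrier Slc7a1 at 14.5 and 6.54 CPM in C1q macrophages.

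In the other gates the same list gave 6 genes higher and 2 lower of 59 in neutrophils, 7 and 15 of 70 in B cells, 7 and 7 of 71 in T cells, and 5 and 16 of 69 in Flt3/Zbtb46-gated cells. Of all genes, 8.16% were higher and 5.95% lower in neutrophils, 11.1% and 25.2% in B cells, 11% and 11.4% in T cells, and 8.09% and 19.1% in Flt3/Zbtb46-gated cells. Over the 6 gates that made 31 higher and 50 lower, against 47 higher and 25 lower under TMM scaling, so the balance of directions in the list depended on the scaling. Odc1, which makes polyamines from ornithine, stood at 132 CPM in pBIC10 and 49.9 CPM in pBIC neutrophils and at 541 and 267 CPM in Flt3/Zbtb46-gated cells. Azin1, which raises ornithine decarboxylase activity, was lower in neutrophils, at 39.1 CPM in pBIC10 and 81.8 CPM in pBIC. In B cells Gatm, the first enzyme of creatine synthesis from arginine, stood at 27.8 CPM in pBIC10 and 2.87 CPM in pBIC. The carrier subunit Slc7a7 was lower in B cells, at 16.2 CPM in pBIC10 and 74.2 CPM in pBIC. Tdo2, the tryptophan dioxygenase of liver, stood at 0.452 CPM in pBIC10 and 5.63 CPM in pBIC B cells. In T cells Slc7a11 stood at 18.4 CPM in pBIC10 and 3.01 CPM in pBIC, and Slc7a7 at 3.94 and 12.3 CPM.

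The named genes with fewer UMIs were as follows. Nos1, neuronal nitric oxide synthase, had 59 UMIs in pBIC10 and 1 in pBIC in the Flt3/Zbtb46 gate, 186 and 25 in the B gate, and 41 and 9 in the T gate. Kmo had 378 UMIs in pBIC10 and 741 in pBIC in the Flt3/Zbtb46 gate, and Acmsd, a later kynurenine enzyme, had 14 and 41. In neutrophils the amino acid carrier Slc36a4 had 68 UMIs in pBIC10 and 3 in pBIC, and Ddit3, a stress factor, had 94 and 62 at 15.4 and 38.7 CPM. Tdo2 in T cells had 8 UMIs in pBIC10 and 88 in pBIC.

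The genes whose levels ran most closely with each of the 8 were found over 12 sums, 6 gates by 2 mice, taken from cells of 1 gate only, with Pearson's r of log2(CPM + 1). The sums share libraries, and the pBIC C1q sum rests on 43 cells, so r is given as a description. In that sum all 35 Arg1 UMIs lay in 1 cell, as did all 7 Slc7a2 UMIs. In the pBIC Tgfbi sum 161 of 176 Arg1 UMIs lay in 1 cell. The r values of these 2 genes therefore rest in part on single cells. Arg1 ran with Msr1 (0.99), Gpnmb (0.98) and Mertk (0.98), and Slc7a2 with Il1a (0.95), Arg1 (0.93) and Plxdc2 (0.93). Nos2 ran with Lyz2 (0.99), Aoah (0.99) and C3 (0.97), and Arg2 with Osgin1 (0.98), Id1 (0.98) and Slfn4 (0.98). Lyz2 is itself a gene of the Tgfbi gate, and gate genes were not left out. Ass1 ran with Tmem256 (0.94), M6pr (0.94) and Tep1 (0.91), and Il4i1 with Ly86 (0.93), Smagp (0.92) and Lgmn (0.91). Slc7a5 ran with Mzt1 (0.92), Cfap298 (0.91) and Asns (0.91), and Ido1, at its few UMIs, with Atp6v0d2 (0.87), Mocs2 (0.86) and Mrc1 (0.81).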

How the data were processed

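The authors' deposited matrices give UMI counts, one table for each 5' library of the 10x type. The submitters' processing notes list Cell Ranger 3.0.1 with the build GRCm39, but the header of the matrices reads cellranger 5.0.1. The 8 genes, the gates and the lists were chosen with earlier results of these data known. Some listed genes are not reported here, and the marker sums, the pathway counts and the red-cell precursor class were computed without them, a change made after the data were seen.

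A barcode was kept if it had 200 genes or more and less than 10% of its UMIs from mitochondrial genes, which left 14667 in pBIC10 and 17871 in pBIC. Scrublet (scanpy 1.11.5, expected rate 0.08) with a score threshold of 0.3 called 2.70% and 2.78% as doublets and left 14271 and 17375 cells. That threshold was set after the automatic one had marked no doublet in pBIC. TCR tables served only to find barcodes with a TRB contig.

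Counts were summed per library and gate. Intervals are exact Poisson for levels, conditional binomial for ratios and Clopper-Pearson for shares, all at 95%, and a count of 0 takes a floor of 3 per class and library. The ratio and its interval were tested on simulated counts. Of the pathway list, up to 2 genes per direction and class were named, past 2-fold with 50 UMIs over both libraries, ranked by the interval's bound nearest to no difference. For each of the 8 genes the 3 with the highest correlation were named, among genes with 100 UMIs and 50 CPM in 1 of the sums. TMM factors came from edgeR 4.0.16. Alternatives were doublet calls, gating, scaling, weighting of cells, filters and fold.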

Additional observations from a re-analysis of the deposited data

Results flagged for a closer look

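The same contrast of pBIC10 over pBIC ran in opposite directions in 2 pairs of classes, each with a counting interval that left out 0, and the difference between the classes was not tested because each genotype is 1 library. For Ass1, which was also higher in pBIC10 in red-cell precursors of no gate, the log2 ratio was 0.81 in T cells and -1.22 in B cells. For Arg2 it was 1.28 in T cells, at 2.53 CPM in pBIC10 and 1.04 CPM in pBIC, and -0.85 in neutrophils, at 83.2 CPM in pBIC10 and 149.8 CPM in pBIC. In T cells of 1 gate only Arg2 was 0.701 CPM in pBIC10 and 0.272 CPM in pBIC, from 22 and 20 UMIs, under the 1.14 and 0.799 CPM that 0 UMIs in red-cell precursors allow, so its T-cell value is not set apart from background.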

How the results depend on the processing

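Over the 6 gates, 17 of the 43 gene and class pairs with enough UMIs were at least 2-fold higher in pBIC10 and 3 at least 2-fold lower. The higher count was 10 with barcodes of 1 gate only, 26 at 1.5-fold and 15 to 22 under the other settings, and the lower count stayed between 2 and 4. Of all genes, 4.67% to 11.1% per gate were at least 2-fold higher and 5.95% to 25.2% at least 2-fold lower. The gates share cells, and the 17 include Arg1 and Slc7a2 in B and T cells, which were not set apart from background. Of pathway genes, 31 pairs were higher and 50 lower, against 47 and 25 with TMM scaling and 71 and 93 at 1.5-fold. TMM moved the median of all genes by up to 0.35 on the log2 scale. Among pairs past 2-fold, the log2 ratio with barcodes of 1 gate only reversed to -0.024 for Arg1 in Tgfbi macrophages, -1.84 for Arg1 and -0.72 for Slc7a2 in C1q macrophages, and -0.92 for Nos2 in neutrophils, which was also -0.43 with gate thresholds doubled. Pairs short of 2-fold also changed sign with barcodes of 1 gate only: Il4i1 and Ass1 in the Flt3/Zbtb46 gate stood at -0.85 in place of 0.53 and 0.20 in place of -0.25, Il4i1 in T cells at 0.19 in place of -0.28, and Nos2 and Slc7a5 in C1q macrophages, from under 20 UMIs each, at -0.01 and -2.23. Fewer cells enter under both settings, barcodes of 1 gate only leave out the macrophages of both gates, and other causes were not tested. Where pBIC held 0 UMIs and pBIC10 few, as for Arg1 in neutrophils of 1 gate only, the floor left no bound. Leaving out the 5 highest cells and the score threshold of 0.2 were chosen after seeing the data. No paired analysis was possible because each genotype has 1 library. Ido1 and the pBIC myeloid classes are limited most by depth and cell number.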
